A study of Mus musculus with 8 samples.

Results

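The nuclear-encoded genes of the mitochondrial respiratory chain were examined in RNA-seq counts of activated mouse microglial cultures. Members were all protein-coding genes whose symbol begins with Nduf, Uqcr, Cox followed by a digit from 4 to 8, or Atp5, and whose identifier stands in both deposited tables. This rule gave 89 genes of 31406 in the table: 44 for complex I, 8 for complex III, 20 for complex IV and 17 for complex V. Ndufa4 and Ndufa4l2 were placed in complex IV, where the Ndufa4 protein resides. Another 10 genes with matching names were not protein-coding, 9 of them processed pseudogenes, and were not counted as members. The study asked how blocking the adenosine A2A receptor, alone or with activation of the adenosine A3 receptor, changes the transcriptome of microglia, the brain's own macrophages. Primary cultures from the striatum of wild-type (WT) C57/BL6 pups were kept for 15 days and then exposed for 48 h to 0.01% lipopolysaccharide (LPS) and 0.002% interferon-γ (IFN-γ), the latter being the human protein. Receptor ligands were given at 24, 32 and 40 h of activation. The A2A antagonist group (4 libraries) received SCH 58261, an A2A receptor antagonist, and the dual group (4 libraries) received SCH 58261 together with 200 nM 2-Cl-IB-MECA, an A3 receptor agonist. Both groups therefore share WT genotype, activation and SCH 58261, and differ in the agonist alone. The treatment field of the labels names the agonist for the 4 libraries titled with SCH 58261 only and omits it for the other 4, so each direction given here rests on the titles.

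Total counts were 38427491 to 45878639 in the A2A antagonist libraries and 32630602 to 45544451 in the dual libraries. Nothing in the labels ties a library to an animal or a separate culture, so p-values measure the spread between these libraries, which may be technical. The 12 microglial markers summed to 1039 to 1178 CPM (counts scaled to library size) per kilobase of gene length in the A2A antagonist group, and 6 astrocyte markers, Gfap and Aqp4 among them, to 1234 to 1286. Fibroblast markers (6 genes) reached 282 to 316 on the same scale, while 5 muscle markers stayed between 0.593 and 0.859. Markers of astrocytes and fibroblasts were thus detected in cultures labelled as microglia, and the levels given below belong to the whole culture. In such bulk RNA, fewer cells of a type and less RNA per cell cannot be told apart.

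The respiratory chain passes electrons from NADH and succinate to oxygen and uses the energy to move protons across the inner mitochondrial membrane. Complex I (NADH dehydrogenase) takes electrons from NADH, complex III (cytochrome bc1) hands them to cytochrome c, complex IV (cytochrome c oxidase) reduces oxygen, and complex V (ATP synthase) makes ATP from the returning protons. Each of these complexes combines a few subunits encoded by mitochondrial DNA with many that are encoded in the nucleus and imported. Microglia activated by LPS and IFN-γ are known for a shift of energy metabolism toward glycolysis.

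Nuclear respiratory chain genes are known targets of NRF1, of the ETS-family factor NRF2/GABP and of YY1. Promoter windows from RefSeq (GRCm38.p6; 250 bases before to 50 bases after each annotated start) were found for 71 of the 89 members and were searched on both strands for the cores GCATGCG (NRF1), CCGGAAG (ETS) and ATGGCGG (YY1). The NRF1 core was in the windows of 12 members (16.9%), against 4.01% of all 27025 genes in the promoter table and 4.96% of its 17492 protein-coding genes. The ETS core was in 16 members (22.5%, against 9.93% and 12.9%), and the YY1 core in 12 members (16.9%, against 4.69% and 6.05%). At least 1 of the cores was present in 33 members (46.5%), against 21.1% of protein-coding genes. The comparison shares cover genes whether or not they are expressed in these cultures, and the share among expressed genes was not computed. Of the 12 members with the YY1 core, 10 held it on the gene's own strand, where ATGGCGG can also be a start codon followed by an alanine codon. The YY1 core was in 10 of 39 complex I windows and in 0 of 14 complex IV windows. Only subunits with 1 window were eligible for printing, which left out Ndufa5 and Ndufa7. To show what these promoters look like, the 200 bases before the start are printed for 1 eligible subunit per complex. It is the one with the smallest p-value below among those whose 200 bases hold a core, with the cores in capitals:
Ndufb7 (complex I, chr8:83566558-83566757, plus strand): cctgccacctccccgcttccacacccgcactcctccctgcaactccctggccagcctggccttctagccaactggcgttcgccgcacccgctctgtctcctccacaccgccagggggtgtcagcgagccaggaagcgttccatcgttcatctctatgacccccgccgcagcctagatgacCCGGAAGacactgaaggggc
Uqcrh (complex III, chr4:116075071-116075270, minus strand): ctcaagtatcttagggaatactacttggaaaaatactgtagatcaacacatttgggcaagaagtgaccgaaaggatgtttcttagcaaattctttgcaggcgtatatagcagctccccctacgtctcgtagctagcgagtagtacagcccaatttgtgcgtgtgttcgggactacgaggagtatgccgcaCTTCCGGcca
Cox6a1 (complex IV, chr5:115348959-115349158, minus strand): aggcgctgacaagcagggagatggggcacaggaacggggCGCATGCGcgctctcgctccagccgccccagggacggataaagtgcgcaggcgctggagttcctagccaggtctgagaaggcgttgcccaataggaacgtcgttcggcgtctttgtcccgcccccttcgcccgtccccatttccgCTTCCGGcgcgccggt
Atp5e (complex V, chr2:174464102-174464301, minus strand): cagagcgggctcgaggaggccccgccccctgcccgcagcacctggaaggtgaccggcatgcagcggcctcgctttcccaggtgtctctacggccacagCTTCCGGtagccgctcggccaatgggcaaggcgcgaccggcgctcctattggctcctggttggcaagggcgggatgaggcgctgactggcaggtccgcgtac
The Cox6a1 window holds the palindromic NRF1 site, read on both strands, and an ETS core next to the start. A match describes the letters of the window and was not tested as a binding site.

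The summed level of each of the 4 complexes was lower in the dual group than in the A2A antagonist group by a few percent, and 69 of 71 structural subunits had a lower level, although only 1 passed the adjusted test. Of the 89 members, 85 passed the low-count filter, 74 of them were lower in the dual group and 11 were higher. At an unadjusted p-value under 0.05 (edgeR quasi-likelihood test), 45 of the 85 were lower (52.9%, against 6.81% of the 18756 genes tested) and 0 were higher (against 5.98%). After Benjamini-Hochberg adjustment over all genes tested, 1 member, Uqcrq, was called (against 0.208% of all genes in either direction, 0.16% lower and 0.048% higher in the dual group). In 17 members (20%, against 4.06% of all genes) every dual library was below every A2A antagonist library, and in 0 members every dual library was above (against 3.36%). The median log2 fold change of the members was -0.10, or -6.38%, while the median of all genes tested was 0.0038 and 48.5% of them were lower. Among other genes of at least 10 CPM, the share lower depended on deposited gene length. It was 84.5% up to 1000 bases, 81.7% above that up to 2000, 69.5% above that up to 4000 and 39.1% over 4000. In these classes 19 of 19, 28 of 32, 16 of 18 and 8 of 9 members were lower. Differences were small and narrowly estimated: the median standard error was 0.046 on the log2 scale, and for 83 of the 85 members the 95% interval lay within a 1.5-fold change in either direction.

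**Figure D1:**
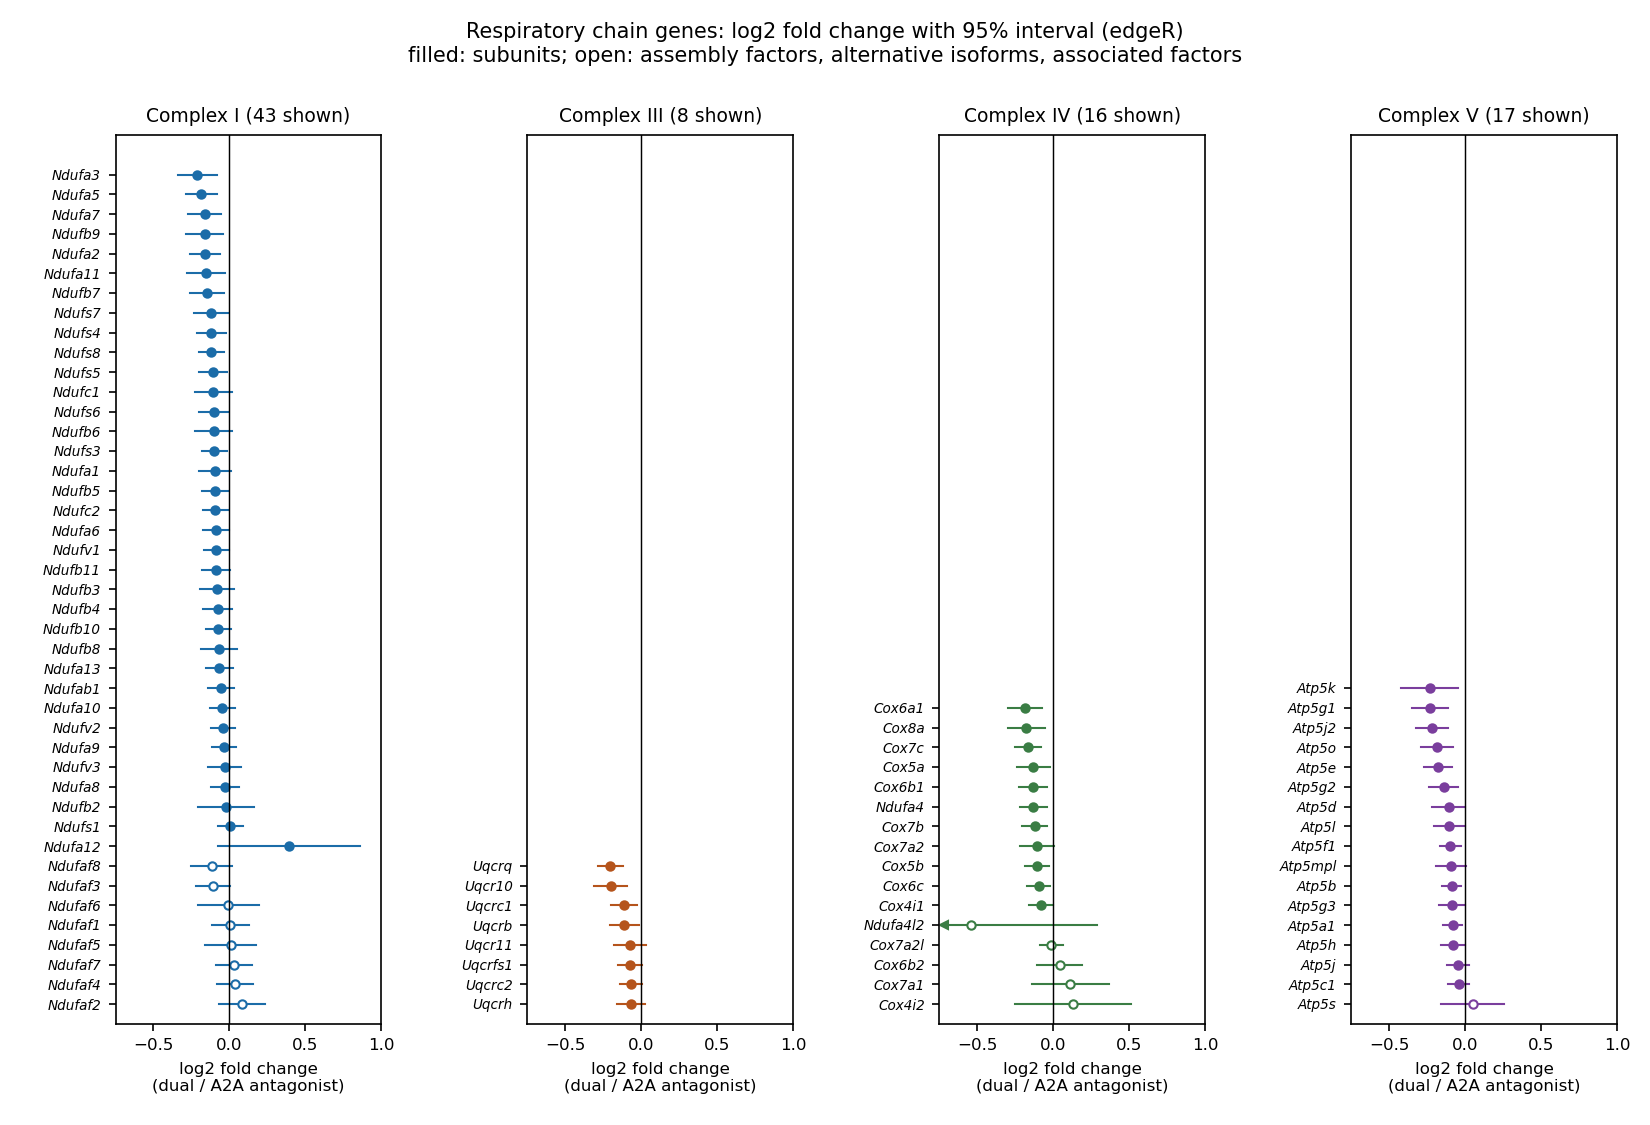
Log2 fold change (dual over A2A antagonist, x axis) of 84 of the 85 tested members with 95% intervals from edgeR, in 1 panel per complex. Filled points are subunits and open points are assembly factors, alternative isoforms and associated factors; the arrow marks an interval cut off at the panel's edge. Of the 70 subunits shown, 68 lie left of 0, and 9 of the 14 open points lie right of it.

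Structural subunits and the remaining members were counted apart. Among the 71 subunits that build the complexes in most tissues, 69 were lower and 45 had an unadjusted p under 0.05. Among the 14 tested assembly factors, alternative isoforms and associated factors, 5 were lower, 9 were higher and 0 passed that threshold in either direction, with a median log2 fold change of 0.020. These 14 were less abundant: 8 of them had a mean of at least 10 CPM, against 70 of the 71 subunits. By role, 6 of 7 complex I core subunits were lower (5 under the threshold), as were 28 of 29 complex I accessory subunits (13), 8 of 8 complex III subunits (4), 11 of 11 complex IV subunits (10), 5 of 5 subunits of the catalytic F1 part of complex V (4) and 11 of 11 of its membrane and stalk part (9). Only 3 of 8 complex I assembly factors were lower. The median log2 fold changes of the complexes lay close together, at -0.087 for complex I, -0.094 for complex III, -0.11 for complex IV and -0.097 for complex V. Whether subunits and the other members differ was not tested, since the members of a class are not replicates.

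Summed over its members, complex I reached 2083, 2176, 2128 and 2166 CPM in A2A antagonist libraries 1 to 4 and 2027, 2009.7, 2030 and 1994 CPM in dual libraries 1 to 4. Complex III summed to 719, 754, 709 and 750 CPM against 693, 678, 679 and 657 CPM. Complex IV summed to 1415, 1565, 1435 and 1532 CPM against 1359, 1358, 1391 and 1354 CPM. In these complexes the groups did not overlap, and A2A antagonist libraries 2 and 4 were the highest each time. Complex V summed to 2530, 2694, 2561 and 2663 CPM against 2443, 2420, 2451 and 2423 CPM, with the same order. The mean sum of the dual group differed from that of the A2A antagonist group by -5.74% in complex I, -7.66% in complex III, -8.15% in complex IV and -6.81% in complex V. The A2A antagonist libraries were more spread out than the dual libraries (SD 72.9 against 17.0 CPM for complex IV, n = 4 in each group). With A2A antagonist libraries 2 and 4 left out, the median log2 fold change of the members was -0.060, 72 of 85 members were lower and 10 were lower at an unadjusted p under 0.05 (11.8%, against 3.51% of all genes in that fit). The differences of the sums were then -4.27%, -5.21%, -4.19% and -4.38%.

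**Figure D2:**
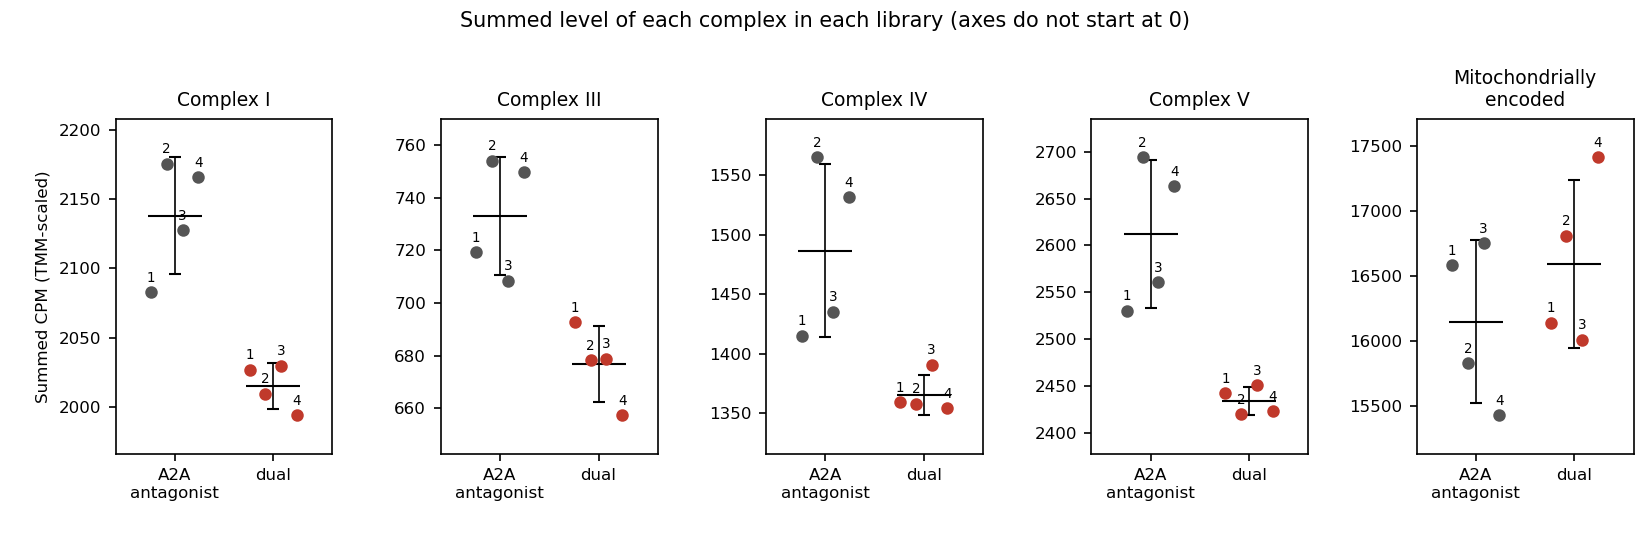
Summed TMM-scaled CPM (y axes, not starting at 0) of complexes I, III, IV and V and of the mitochondrially encoded subunits in each library, with replicate numbers; black bars are the group mean and SD. In the 4 nuclear-encoded sets every dual library lies below every A2A antagonist library, and A2A antagonist libraries 2 and 4 are the highest; the mitochondrially encoded sums overlap.

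Gene length moved with the result. Members were short and abundant, with a median deposited length of 1587 bases and a median of 57.5 CPM, against 3662 bases and 15.2 CPM over all genes tested. Among genes of at least 10 CPM that are not members, the median log2 fold change was -0.096 up to 1000 bases, -0.061 above that up to 2000, -0.032 above that up to 4000 and 0.016 over 4000 bases. In the shortest class 44.3% of these other genes were lower at an unadjusted p under 0.05, beside 11 of 19 members (57.9%), whose median was -0.11. In the longest class the share was 3.83% of other genes and 7 of 9 members (77.8%), whose median was -0.097. By deposited length, the members' medians varied little (-0.075 to -0.11). Those of other genes passed from below 0 to above it. Deposited length can lie far above that of coding transcripts. In the longest class, deposited and median coding transcript lengths were 6443 and 544 bases for Atp5l and 6883 and 984 for Ndufab1. For Atp5g1 they were 4912 and 2675.5. These classes and the length offset below rest on deposited length, and transcript length was not tested. In the library with the highest member level, A2A antagonist library 2, the median deviation from the mean of the 8 libraries was 0.089 for subunits and 0.075 for other genes up to 1000 bases on the log2 scale. In the dual libraries both sets lay between -0.040 and -0.063. With a length offset in the fit, chosen after seeing the data, the members' median was -0.069, 72 of 85 were lower, 30 were lower at an unadjusted p under 0.05 (35.3%, against 6.17% of all genes) and 0 were called. With length and GC content together, 32 were lower at that threshold (37.6%, against 7.71%).

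**Figure D3:**
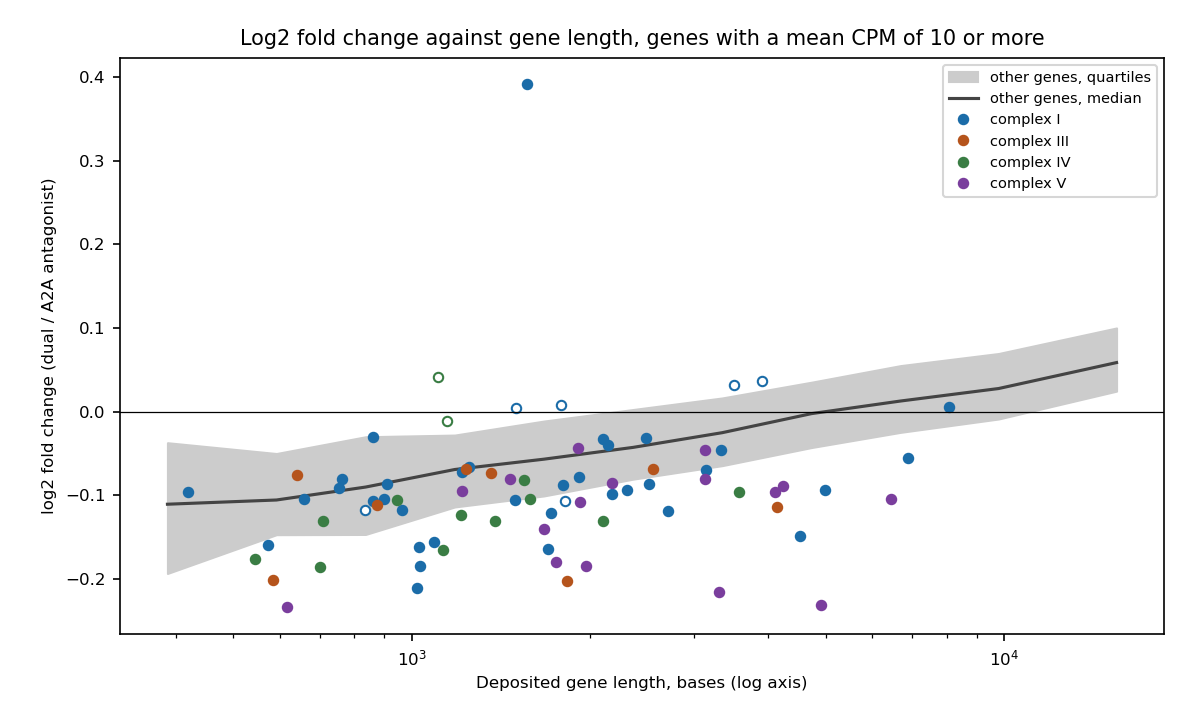
Log2 fold change (dual over A2A antagonist, y axis) against deposited gene length (x axis, log) for the members with a mean of at least 10 CPM, coloured by complex, with open points for assembly factors, isoforms and associated factors; the line and band are the median and quartiles of all other genes of that level in bins of length. The band rises from below 0 for short genes to above 0 for long genes, and most subunits lie at or below the line across the range.

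Cell type markers differed in part between the groups. The summed microglial markers were 1601 to 1749 CPM in the A2A antagonist group and 1515 to 1600 CPM in the dual group, without overlap, and 8 of the 12 genes were lower and 4 higher. C1qa, a complement component, lay at 434 to 502 CPM against 386 to 412 CPM, while Csf1r, the colony-stimulating factor receptor of microglia, lay at 211 to 223 CPM against 226 to 244 CPM. Oligodendrocyte markers summed to 460 to 496 CPM against 428 to 452 CPM (5 of 6 lower). Sums of the other lists overlapped between the groups: astrocyte markers gave 6349 to 6618 against 6346 to 6767 CPM, fibroblast markers 2379 to 2652 against 2369 to 2986 CPM, and 4 endothelial markers 47.8 to 58.8 against 50.2 to 61.1 CPM, with Cldn5 at 0. Mural markers gave 82.7 to 97.7 against 91.2 to 100.4 CPM, neuronal markers 100.9 to 110.2 against 104.1 to 115.5 CPM, and muscle markers 1.98 to 2.73 against 1.71 to 2.48 CPM. The part of cell composition in the members' difference was not tested.

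In complex I, Ndufa5, an accessory subunit of the matrix arm, had the smallest p of the subunits. Its level was 34.8, 34.5, 33.5 and 34.6 CPM in A2A antagonist libraries 1 to 4 and 28.0, 29.3, 30.6 and 32.9 CPM in dual libraries 1 to 4. The groups did not overlap, and the log2 fold change was -0.18 (SE 0.050, adjusted p = 0.112, exact permutation p = 0.0286, the smallest that 70 arrangements allow). Ndufa2, an accessory subunit and the highest of complex I per kilobase, showed the same separation with 74.9, 83.0, 77.1 and 83.9 CPM against 74.6, 71.2, 73.9 and 65.9 CPM. A2A antagonist library 1 and dual library 1 were nearly equal, and the log2 fold change was -0.16 (SE 0.047, adjusted p = 0.145). For Ndufa1, next in level, the log2 fold change was -0.096 (SE 0.050) with overlapping groups, at 39.8 to 44.1 CPM against 35.8 to 41.5 CPM. The core subunits Ndufs3 and Ndufs8 had separated groups as well, as did the accessory subunits Ndufb5 and Ndufc2. Ndufs8, which carries iron-sulfur clusters, was at 47.9, 49.1, 47.3 and 47.6 CPM against 44.8, 45.3, 44.8 and 41.9 CPM, a log2 fold change of -0.12 (SE 0.040, adjusted p = 0.206). By contrast Ndufs1, the largest core subunit, was at 72.7, 69.2, 68.1 and 70.6 CPM against 67.9, 70.02, 70.3 and 73.4 CPM. Its log2 fold change was 0.0057 with a 95% interval from -0.075 to 0.086.

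Ndufa12, an accessory subunit of the matrix arm, stood apart from the rest by its spread. Its level was 12.7, 15.5, 26.8 and 12.2 CPM in A2A antagonist libraries 1 to 4 and 22.8, 23.5, 12.4 and 29.5 CPM in dual libraries 1 to 4. In each group both low and high libraries occurred, the groups overlapped, and the log2 fold change of 0.39 (SE 0.22) had an adjusted p of 0.484. The coefficient of variation within a group was 40.7% and 32.3%, while the highest among the other 77 members with at least 10 CPM was 19.4% and the median of the tested members was 4.87%. Of its 31-base words, 20.7% also occur in other genes, which makes its counts uncertain. For Ndufaf2 this share was 65.1%, with coefficients of variation of 5.48% and 4.77%. For Atp5o it was 49.6%, with 7.04% and 4.65%. The part of shared words in the spread was not tested. Ndufb2 had the lowest level of the subunits, 6.01 to 7.54 CPM against 6.49 to 6.88 CPM, over a deposited length of 5628 bases that overlaps exons of Braf and Gm42420.

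The complex I assembly factors, which help to build the complex but are not part of it, were low in level and showed no common direction. Ndufaf3 was at 21.8, 20.6, 19.7 and 21.7 CPM against 19.9, 19.7, 19.5 and 18.8 CPM, with a log2 fold change of -0.11 (SE 0.053, unadjusted p = 0.0605). For Ndufaf8, which had the highest level per kilobase of these factors, the log2 fold change was -0.12 (SE 0.064). Ndufaf1 was at 0.0046 (SE 0.058) and Ndufaf2 at 0.084 (SE 0.072), the largest positive value of the 8 factors. Ndufaf2 shares over 20% of its exonic bases with other genes, as do Atp5o, Ndufb6 and Ndufa13. Summed, the 8 factors gave 118 to 123 CPM against 116 to 122 CPM.

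In complex III, Uqcrq, the small subunit next to cytochrome b, was the only member called. It was at 116, 124, 117 and 125 CPM in A2A antagonist libraries 1 to 4 and at 105, 111, 103 and 101 CPM in dual libraries 1 to 4. Every dual library lay below every A2A antagonist library, and the log2 fold change was -0.20 (SE 0.039, adjusted p = 0.0342, exact permutation p = 0.0286). Uqcrq shares no exonic base or 31-base word with another gene (chr11:53427922-53430831, GRCm38, minus strand). The direction stayed in every fit without 1 library (-0.23 to -0.19), but the adjusted p was 0.0591 to 0.142 without any of A2A antagonist libraries 2, 3 and 4 or of dual libraries 1, 3 and 4. It was 0.0732 with the length offset and 0.491 without A2A antagonist libraries 2 and 4. Uqcr10, the shortest gene of the complex and the highest per kilobase, was at 57.4, 66.0, 58.4 and 64.0 CPM against 57.6, 50.7, 54.2 and 51.5 CPM. Its log2 fold change was -0.20 (SE 0.051, adjusted p = 0.0958), with dual library 1 inside the range of the A2A antagonist group. Uqcr11 and the core subunit Uqcrc1 had log2 fold changes of -0.076 (SE 0.050) and -0.11 (SE 0.041), both with overlapping groups. Uqcrc2, the other core protein, had separated groups by a narrow margin, at 96.9 to 103.1 CPM against 92.3 to 96.6 CPM.

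In complex IV, 10 of 11 subunits were lower at an unadjusted p under 0.05 (against 6.81% of all genes tested). Cox7c, with the smallest p, was at 107, 118, 104 and 116 CPM in A2A antagonist libraries 1 to 4 and at 98.7, 95.8, 99.6 and 103 CPM in dual libraries 1 to 4. The groups were separated, and the log2 fold change was -0.17 (SE 0.042, adjusted p = 0.0929), with 24.5% of its 31-base words found in other genes as well. Cox7b had separated groups as well, at 138, 145, 140 and 144 CPM against 124, 124, 134 and 138 CPM, a log2 fold change of -0.12 (SE 0.039). Cox8a, the highest member per kilobase, was at 182, 224, 179 and 213 CPM against 169, 187, 181 and 170 CPM. Libraries 2 and 4 carried the excess of the A2A antagonist group here, and the log2 fold change of -0.18 (SE 0.059) had an exact permutation p of 0.143. Cox6a1 showed the same pattern, at 167, 202, 178 and 192 CPM against 173, 169, 162 and 147 CPM, with a log2 fold change of -0.19 (SE 0.055, adjusted p = 0.146). Cox4i1, a large nuclear-encoded subunit with a regulatory role, differed least of the 11 (log2 fold change -0.082, SE 0.037). Log2 fold changes were -0.13 for both Ndufa4 (SE 0.042) and Cox6b1 (SE 0.044). Cox7a2, with -0.11 (SE 0.053), was the subunit above the threshold, at an unadjusted p of 0.0608. Cox7a2l, counted apart as a factor of supercomplexes, which are respiratory complexes joined together, was at -0.012.

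In complex V, 13 of the 16 subunits were lower at an unadjusted p under 0.05 (against 6.81% of all genes tested). Among genes of at least 10 CPM that are not members, this share ran from 44.3% (up to 1000 bases) to 3.83% (over 4000 bases). The F1 subunits Atp5b and Atp5a1 were the most abundant members by CPM. Atp5b was at 652, 676, 670 and 664 CPM in A2A antagonist libraries 1 to 4 and at 625, 621, 632 and 625 CPM in dual libraries 1 to 4. Its groups were separated, with a log2 fold change of -0.089 (SE 0.029, adjusted p = 0.182). Atp5a1 was at 562, 581, 561 and 583 CPM against 550, 535, 542 and 535 CPM, again separated (log2 fold change -0.081, SE 0.030). Log2 fold changes of the 16 subunits ranged from -0.23 to -0.043. Atp5j2, of the membrane part, was at 89.9, 109, 96.1 and 106 CPM against 86.0, 84.9, 89.6 and 85.1 CPM, a log2 fold change of -0.22 (SE 0.050, adjusted p = 0.0708). Atp5e, the epsilon subunit of F1, was at 77.2, 84.4, 78.1 and 83.6 CPM against 73.7, 68.0, 75.3 and 68.5 CPM, a log2 fold change of -0.18 (SE 0.044, adjusted p = 0.0866). Both genes had separated groups. Atp5s, a factor associated with the enzyme, was at 0.050 (SE 0.098).

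The genes Atp5g1, Atp5g2 and Atp5g3, encode the same mature c subunit, which forms the proton-carrying ring of complex V. Atp5g1 was at 56.7, 68.4, 56.0 and 64.1 CPM in A2A antagonist libraries 1 to 4 and at 49.6, 54.2, 53.3 and 52.0 CPM in dual libraries 1 to 4. These groups were separated, and the log2 fold change was -0.23 (SE 0.056, adjusted p = 0.0839). The log2 fold change was -0.14 (SE 0.046) for Atp5g2 and -0.086 (SE 0.040) for Atp5g3, at unadjusted p-values of 0.0065 and 0.0435 and with overlapping groups. Per kilobase of deposited length, Atp5g2 stood at 65.4 and Atp5g3 at 57.9 CPM, with Atp5g2 above Atp5g3 in each library, overlapping ranges over the 8 libraries and a ratio of 1.13 that became 0.914 when the median length of the coding transcripts was used. Atp5g1 was lower at 11.6 CPM per kilobase, 5.00 times below Atp5g3 by deposited length and 8.27 times by coding transcript length.

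The level of each complex per kilobase of deposited gene length, as a mean of the 8 libraries, set complex I subunits lowest and complex IV subunits highest. The median was 32.3 CPM per kilobase over 36 subunits of complex I, 50.6 over 16 of complex V, 63.8 over 8 of complex III and 93.1 over 11 of complex IV. These medians did not overlap between complexes in any library, but the subunits of each did: complex I ranged from 1.20 (Ndufb2) to 132 (Ndufa2), complex V from 11.5 (Atp5l) to 177 (Atp5a1), complex III from 37.6 (Uqcrc1) to 98.4 (Uqcr10) and complex IV from 23.0 (Cox5a) to 345 (Cox8a). The order of complexes III and V depended on the length used. With the median length of each gene's coding transcripts, the medians were 66.4 (I), 129 (III), 154 (V) and 195 (IV).

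**Figure D4:**
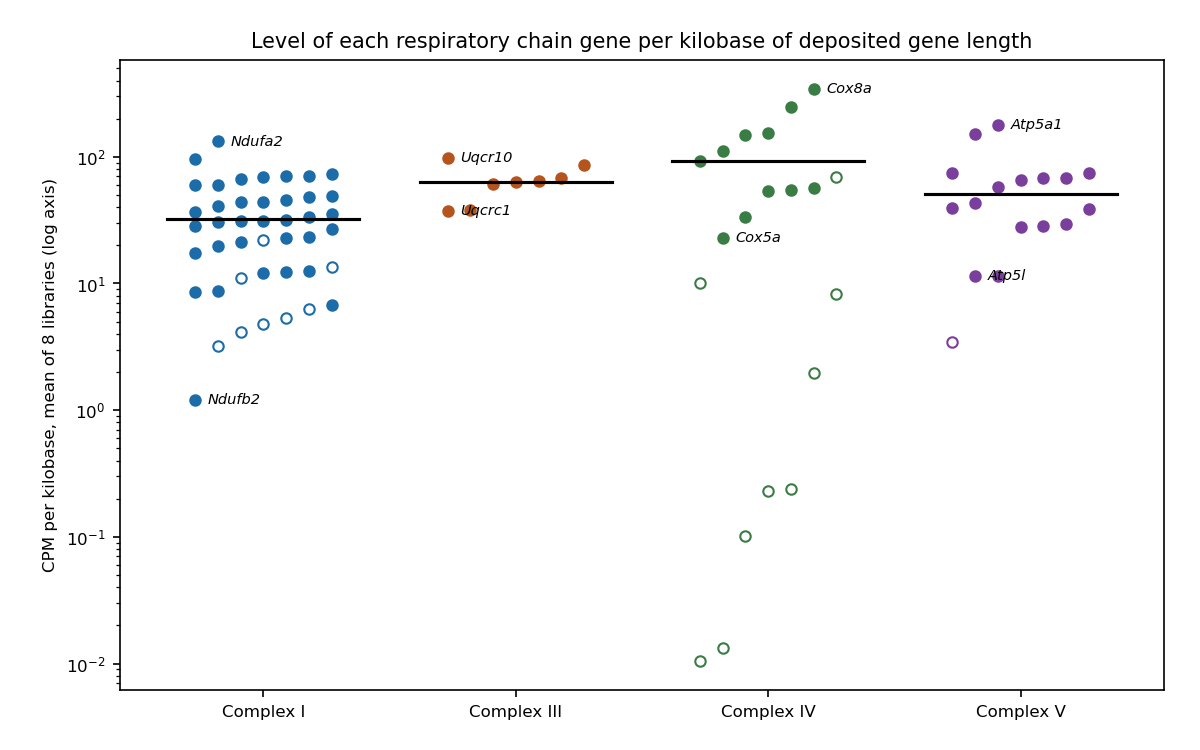
Mean level of each member in CPM per kilobase of deposited gene length (y axis, log) by complex; filled points are subunits, open points are assembly factors, alternative isoforms and associated factors, and bars are medians of the subunits. The medians rise from 32.3 (complex I) through 50.6 (complex V) and 63.8 (complex III) to 93.1 (complex IV), and the open points of complex IV reach down to 0.0104.

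Several positions of complex IV can be filled by alternative subunits that are typical of muscle, lung or testis. In these cultures the broadly expressed form was far above its partner in every library. Cox4i1 exceeded the oxygen-responsive Cox4i2 by 78.3 times per kilobase, with library ratios from 65.1 to 110. Cox6a1 exceeded the muscle form Cox6a2 by 1042 times, with ratios from 568 to 6305 that rest on 53 counts of Cox6a2 over all libraries. Ndufa4 exceeded Ndufa4l2, a hypoxia-induced relative, by 249 times (167 to 623), Cox6b1 exceeded the testis form Cox6b2 by 14.6 times (12.5 to 16.5), and Cox7a2 exceeded the muscle form Cox7a1 by 6.64 times (5.03 to 7.82). By coding transcript length the ratios ran from 7.80 (Cox7a2) to 1282 (Cox6a1) over these 5 pairs. The muscle and testis forms Cox8b, Cox7b2 and Cox8c had 11, 2 and 2 counts in all 8 libraries together and, like Cox6a2, failed the low-count filter. Between the groups, Cox4i2 (log2 fold change 0.13, SE 0.18), Cox7a1 (0.11, SE 0.12) and Cox6b2 (0.042, SE 0.072) were not lower in the dual group, and Ndufa4l2 (-0.54, SE 0.40), with 0.0920 to 0.389 CPM, was too low for a narrow estimate.

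**Figure D5:**
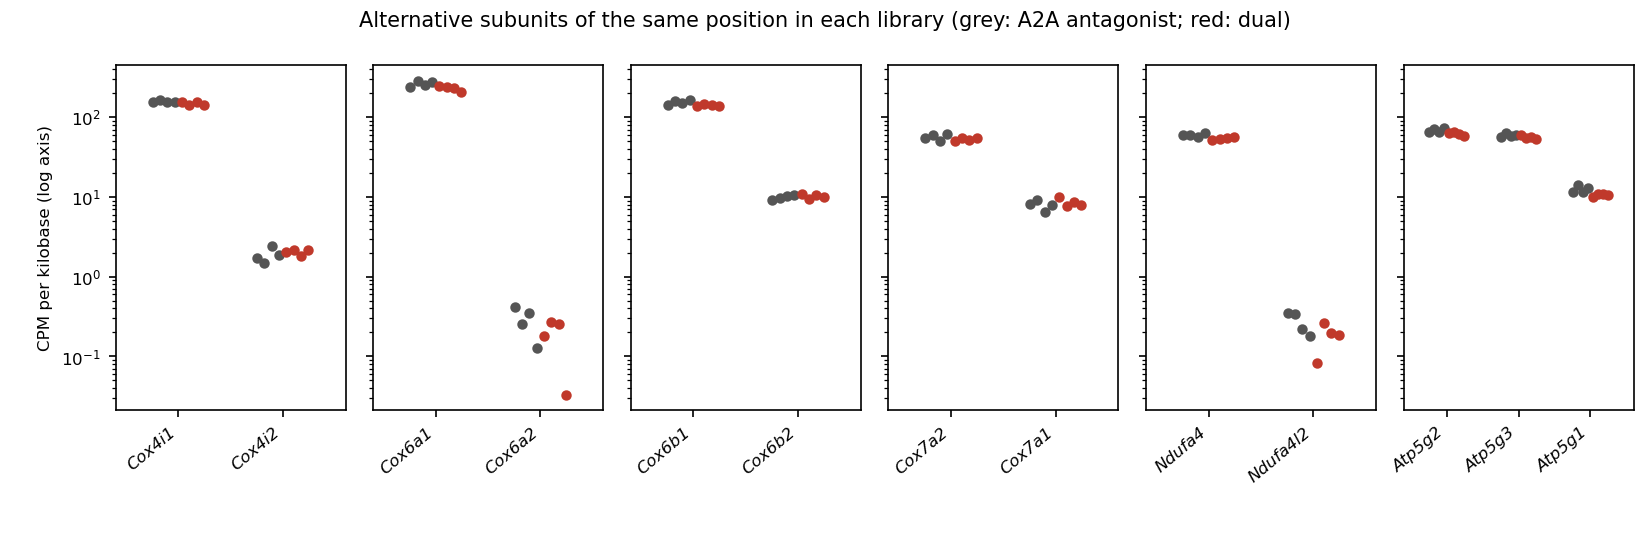
CPM per kilobase (y axis, log) of alternative subunits of the same position in each of the 8 libraries, grey for the A2A antagonist group and red for the dual group. The first gene of each complex IV pair lies above its partner in every library, by 5.03 times at the least (Cox7a2 over Cox7a1), and Atp5g2 lies above Atp5g3 by 1.07 to 1.20 times in each library while their ranges over the 8 libraries overlap.

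Genes of the same pathway outside the rule were counted in the same fit, and 0 of them were called; with 0.208% of all genes called, lists of this size would hold few calls or none. At an unadjusted p under 0.05, 6.81% of all genes were lower. Among genes of at least 10 CPM that are not members, this share ran from 44.3% (up to 1000 bases) to 3.83% (over 4000 bases). At any p, 84.5% of these other genes were lower up to 1000 bases and 39.1% over 4000 bases. These are the shares to set beside the counts that follow. All 8 complex II genes were lower (1 at an unadjusted p under 0.05, Sdhd, log2 fold change -0.086), with a median of -0.066. Of 8 genes for cytochrome c and other complex III factors, 6 were lower, 2 of them under that threshold: Uqcc2, an assembly factor (-0.17), and Cyc1, the cytochrome c1 subunit (-0.11). Of 23 other complex IV factors 20 were lower (3 under the threshold, among them Coa3 at -0.15 and Cox10 at -0.16), and of 5 other complex V genes all 5 were lower (2 under it). All 6 carriers of the inner and outer membrane were lower (3 under it), including the ADP/ATP carrier Slc25a5 at -0.082. Of 9 other complex I assembly factors 7 were lower (0 under it). The 13 regulators of mitochondrial biogenesis had a median of 0.016, with 5 lower, 8 higher and 0 under the threshold; Ppargc1a, the coactivator PGC-1α, was at 0.11 (SE 0.062) and Nrf1 at -0.093 (SE 0.049).

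The 13 subunits encoded by mitochondrial DNA, which complete the same complexes, had no common direction. Of these, 7 were lower and 6 higher, 2 lower (mt-Co3 and mt-Nd6) and 1 higher (mt-Nd5) at an unadjusted p under 0.05, and the median log2 fold change was -0.0090. They summed to 16584, 15832, 16754 and 15434 CPM in A2A antagonist libraries 1 to 4 and to 16143, 16810, 16012 and 17412 CPM in dual libraries 1 to 4. In this sum A2A antagonist libraries 2 and 4, the highest for the nuclear-encoded subunits, were the lowest, and the groups overlapped. The single genes did not share that order. Within the A2A antagonist group, libraries 2 and 4 were the lowest for mt-Co1, mt-Nd1, mt-Nd4 and mt-Nd5. Library 2 was instead the highest of the group for mt-Cytb, mt-Atp6, mt-Nd2, mt-Nd3 and mt-Nd6. The mitochondrially encoded part of complex IV summed to 6495 and 6485 CPM in A2A antagonist libraries 2 and 4 and to between 7067 and 7505 CPM in the other 6. This sum is mostly mt-Co1 (a mean of 6719 of 6889 CPM in the A2A antagonist group). The other genes of this part, mt-Co2 and mt-Co3, were highest in A2A antagonist library 2, at 117 and 62.0 CPM. Mitochondrial genes have near-identical nuclear copies, so their counts are uncertain.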

How the data were processed

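RNA-seq counts of 8 libraries (4 per group) were analysed. The methods of the study state fewer replicates of ligand-treated cells than the 4 libraries labelled in each group. A figure legend of the same paper gives 4 for these cells. All labelled libraries were used, and every standard error and p-value rests on them. Per the study's methods, HISAT2 mapped the read pairs to the Ensembl mouse assembly. The submitters' notes name mm10 and featureCounts 1.5.0-p3, with which the authors obtained counts per gene. Whether counting used the strand was not stated, so genes that overlap others are uncertain (29 members overlap exons on the opposite strand and 5 on the same strand; 33 share more than 10% of their 31-base words with other genes). The deposited values are raw counts per gene, not normalized or pooled, with a gene length in bases. The deposited tables also hold the authors' own fold changes and p-values and 9 columns of 3 control libraries outside this series; none of these was used. Counts of the A2A antagonist libraries were the same in both tables (0 differing values in 30302 shared genes). Coordinates are GRCm38; 83 of the 89 members have identical coordinates in GENCODE M21.

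Genes were filtered with filterByExpr (minimum count 10), scaled with TMM factors and tested with the two-sided quasi-likelihood F test of edgeR 4.0.16 in R 4.3.3 without covariates. P-values were adjusted by Benjamini-Hochberg over 18756 genes and called under 0.05. CPM are TMM-scaled. Standard errors and 95% intervals come from the same fit; exact permutation tests used all 70 arrangements, two-sided. The test was also run on simulated counts, and the outcome is not reported here. Members, roles and gene lists were chosen with earlier results of these data known. Named are all called members, per complex (assembly factors apart) the 2 highest and the lowest per kilobase and the smallest p in each direction, the alternative subunits and the members that failed the filter; other members and pathway genes named were chosen after their values were seen. Alternatives were DESeq2 size factors, no low-count filter, a replicate block, the DESeq2 1.42.0 Wald test, each library left out, and, chosen after seeing the data, offsets for length (spline, 5 degrees of freedom) or length and GC content, A2A antagonist libraries 2 and 4 left out, and the median length of GENCODE M21 coding transcripts, some of which are incomplete. Precision is limited by 4 libraries per group and, for the lowest members, by counting error. RefSeq promoter windows were used for sequence. The values of 1 member, counted in the totals, are not reported here.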

Additional observations from a re-analysis of the deposited data

Results flagged for a closer look

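In 2 of 74 groups of 4 libraries examined, 1 library lay far from the other 3 by Dixon's ratio, beyond its 95% critical value, which chance gives in about 1 of 20 groups. For the summed level of complex IV in the dual group the ratio was 0.866, because dual library 3 reached 1391 CPM while the others lay between 1354 and 1359 CPM. For Ndufaf2 in the A2A antagonist group the ratio was 0.841, because library 4 was at 10.1 CPM and the others between 8.995 and 9.17 CPM.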

How the results depend on the processing

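In all alternatives tried, 71 to 76 members were lower in the dual group; with 1 library left out, 30 to 46 were lower at an unadjusted p under 0.05. The number of called members depended on the setting: 1 as reported, 13 without the low-count filter (366 of all genes called, against 39 as reported), 12 with the DESeq2 Wald test (381 of all genes), 0 with the replicate block (17 of all genes), 0 with the length offset (13 of all genes) and 0 with A2A antagonist libraries 2 and 4 left out, a fit that called 0 of all 19335 genes tested and so says nothing about the members' calls. Leaving out 1 library gave 0 to 6 called members and 0 to 172 called genes; 6 members were called without A2A antagonist replicate 1, while 0 were called without A2A antagonist library 2, 3 or 4 or with either dual library 1 or 3 removed. Members higher at an unadjusted p under 0.05 numbered 1 without the filter and 0 to 1 with 1 library left out, the 1 appearing on removing A2A antagonist library 3 or dual library 3. Without the filter this member was Ndufa12 (log2 fold change 0.39, edgeR unadjusted p = 0.0022, adjusted p = 0.110). Without A2A antagonist library 3 it was Ndufa12 as well (0.71, unadjusted p = 0.0018, adjusted p = 0.164). The replicate numbers did not pair the libraries: correlations of same-numbered libraries were -0.158, -0.047, -0.090 and -0.206, and no library correlated best with its own number. With the replicate block, 36 members were lower at an unadjusted p under 0.05, and the adjusted p of Uqcrq was 0.0778. With the length offset the complex I median was -0.058; with length and GC content the medians were -0.064 (members) and -0.051 (complex I). Without A2A antagonist libraries 2 and 4, 10 members were lower at an unadjusted p under 0.05, the medians were -0.060 (members), -0.051 (complex I) and -0.059 (complex IV), and the sums differed by -4.19% (complex IV) and -4.38% (complex V). With coding transcript length the level medians were 66.4, 129, 195 and 154 CPM per kilobase for complexes I, III, IV and V. Values near 0 changed sign: Ndufaf1 was at -0.00091 without the filter and from -0.028 to 0.029 with 1 library left out, Ndufb2 ranged from -0.080 to 0.025, Atp5s from -0.034 to 0.11, and Cox4i2 was at -0.016 without A2A antagonist libraries 2 and 4. The cause of these changes was not tested. Leaving out libraries and the block leave fewer degrees of freedom. Depth limits the statements on Cox6a2, Cox8b, Cox7b2, Cox8c and Ndufa4l2.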

Other observations

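Ndufa12 varied 2.42-fold between the 8 libraries (29.5 over 12.2 CPM). The groups overlapped through A2A antagonist library 3 (26.8 CPM) and dual library 3 (12.4 CPM). With 1 library left out, the log2 fold change of Ndufa12 ranged from 0.21 to 0.71. The standard deviation of Ndufa12 on the log2 scale was 0.522, and 32 of 15068 genes with a mean above 1 CPM had a larger one. The 4 other genes of that level within 300 kb of it on chromosome 10 did not share this spread: the standard deviation was 0.0714 for Vezt, 0.0756 for Fgd6, 0.0713 for Nr2c1, whose end lies just before the start of Ndufa12, and 0.0852 for Tmcc3. These genes were named after their values were seen, and no source of the spread was tested.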
